A study of Mus musculus with 16 samples.

Results

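The genes described are those of the cytosolic ribosomal proteins in mouse prostate organoids profiled by ATAC-seq, a method that maps open chromatin by inserting adapters with a transposase. Members were the protein-coding genes whose symbols are Rpl or Rps followed by a number, a letter or x suffix being allowed, without the Rps6k kinases and Rps19bp1. Of 21887 protein-coding genes in the RefSeq table, 77 are members, 47 of the large (60S) subunit and 30 of the small (40S) subunit. Overlapping peaks of all libraries (1 bp or more) were joined, which gave 86616 regions, and 110 of these have their midpoint inside a member's gene body or within 1 kb of it. The label under which the genes were chosen calls them a stable reference. Of their regions called in all libraries, 59.3% differed in rank by genotype, beside 70.4% of all such regions. By DHT it was 20.9%, beside 43.8% (limma, adjusted p under 0.05). Many members thus were not constant, though they were called less often than all regions, and they are named here by their rule.

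The study compared organoids labelled SPOPmut with Control (normal) organoids, each kept for 24 h in medium without mEGF and with either 10 nM DHT (dihydrotestosterone, a potent natural androgen) or EtOH, the solvent. There are 4 groups of 4 libraries: SPOPmut with DHT, SPOPmut with EtOH, Control with DHT and Control with EtOH. All 16 libraries, the Control ones included, carry the label sgNT. SPOP is a substrate adaptor of a ubiquitin ligase that is mutated in some prostate cancers. The labels used here give no SPOP allele, promoter, mouse age or number of clones, nor do they tell if the replicates were grown as separate cultures. The p-values therefore measure the spread between these libraries, which may be technical.

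Ribosomal proteins are the protein parts of the small and the large ribosomal subunit, which are built with ribosomal RNA in the nucleolus. Their genes are active in every growing cell, usually start at a short run of pyrimidines (the 5′ TOP feature that ties translation of these mRNAs to mTOR signalling), and several are used as reference genes in expression assays. RPL5 and RPL11 also bind MDM2 when ribosome assembly is disturbed, and growth signals lead to phosphorylation of RPS6.

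The files are peak lists, 1 per library, with 57245 to 69644 peaks, without read counts, which leaves the depth of sequencing unknown. No lists were identical. In each library the peak signal at a region, the strongest of its peaks, was turned into a percentile rank among the 39300 regions called in all 16 libraries, where 100 is the strongest. A rank is relative: a region whose rank fell in a library was passed by others and need not have lost signal. Of 10 epithelial marker genes, 8 (among them Epcam, Krt5, Krt14, Foxa1 and Hoxb13) had a region called within 1 kb in all 16 libraries, while the luminal keratin genes Krt8 and Krt18 had one in 0 and 4, the 4 being those of SPOPmut with EtOH. Trp63, a basal marker, had 14 to 16 regions in SPOPmut with DHT, 12 to 13 in SPOPmut with EtOH, 18 to 21 in Control with DHT and 13 to 15 in Control with EtOH. Summed over the 10 genes, a library had 45 to 46 called regions in SPOPmut with DHT, 40 to 43 in SPOPmut with EtOH, 45 to 50 in Control with DHT and 39 to 47 in Control with EtOH. Of 8 markers of other cells, Cdh5, Cd3e and Des had no region, and Ptprc, the CD45 gene of leukocytes, had 1 in all 8 SPOPmut libraries and in none of the Control libraries. The endothelial marker Pecam1 and the stromal markers Col1a1 and Pdgfra had regions in all 16 libraries. A library had 6 to 8 at Pecam1, 2 to 3 at Col1a1 and 1 to 2 at Pdgfra. Acta2, the smooth muscle actin gene, had 2 in each SPOPmut library with EtOH and 1 in each other library. The summed count of these 8 genes was 11 to 13 in SPOPmut with DHT, 14 in each SPOPmut library with EtOH, 12 to 13 in Control with DHT and 12 to 14 in Control with EtOH. The part of these markers' cells in the results was not tested. In bulk libraries a change in the mix of cells and a change within a cell type cannot be told apart.

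The start sequences of genes that carry the results are shown first, from 80 bases before to 20 bases after the RefSeq start (build GRCm38.p6, which is mm10), because the regions described below hold these starts; the summits can lie outside the stretch shown. Capitals mark a run of at least 5 pyrimidines that covers any base from the one before the start to the fifth after it, the letters CCGGAAG (the core bound by ETS factors) and the letters GGGCGG (a GC box), the motifs on either strand. The genes are Rps24, Rps23 and Rpl11, whose regions ranked lower in SPOPmut; Rpl14, which ranked higher; Rpl28 and Rpl12, which ranked higher with DHT; and Rpl13a and Rps18, which are common reference genes.
Rps24 (chr14:24490598-24490697, plus strand): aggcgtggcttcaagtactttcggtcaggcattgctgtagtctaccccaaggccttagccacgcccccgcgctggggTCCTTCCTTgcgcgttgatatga
Rps23 (chr13:90923042-90923141, plus strand): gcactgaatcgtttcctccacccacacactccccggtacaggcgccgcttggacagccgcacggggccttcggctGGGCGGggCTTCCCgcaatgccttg
Rpl11 (chr4:136053374-136053473, minus strand): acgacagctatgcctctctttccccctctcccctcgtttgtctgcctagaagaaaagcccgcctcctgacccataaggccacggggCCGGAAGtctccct
Rpl14 (chr9:120571437-120571536, plus strand): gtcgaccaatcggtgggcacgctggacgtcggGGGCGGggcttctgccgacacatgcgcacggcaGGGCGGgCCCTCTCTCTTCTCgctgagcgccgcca
Rpl28 (chr7:4792885-4792984, plus strand): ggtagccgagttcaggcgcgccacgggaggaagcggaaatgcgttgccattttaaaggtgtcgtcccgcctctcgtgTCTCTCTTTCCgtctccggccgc
Rpl12 (chr2:32961632-32961731, plus strand): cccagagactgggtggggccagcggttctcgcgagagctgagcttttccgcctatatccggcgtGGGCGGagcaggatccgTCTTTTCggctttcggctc
Rpl13a (chr7:45128726-45128825, minus strand): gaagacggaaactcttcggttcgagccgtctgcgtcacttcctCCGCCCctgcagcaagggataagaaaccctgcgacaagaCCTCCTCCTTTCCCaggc
Rps18 (chr17:33955646-33955745, minus strand): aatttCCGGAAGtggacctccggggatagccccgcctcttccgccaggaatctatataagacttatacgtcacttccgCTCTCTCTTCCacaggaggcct

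The RefSeq promoter table matched 58 of the 77 members. A pyrimidine run of at least 5 letters, placed by that same tolerance, was present in 48.3% of the 58, beside 26.6% of all 17492 genes in the table, and a run of at least 8 letters in 31.0%, beside 7.72%. CCGGAAG, searched on both strands from 250 bases before to 50 after the start, was present in 22 of 58 members (37.9%), beside 11.9% of all genes. GGGCGG was present in 55.2% of members and 46.3% of all, and AAGATGGC, the core of YY1 sites, in 6.90% and 3.22%. TATAAA, searched on the gene's strand, was present in 8.62% of members and 9.004% of all, and GCGCATGC, the core of NRF1 sites, on both strands in 3.45% and 3.61%. These are matches of letters and not binding sites. The median GC content of the window was 56.5% in members and 56.3% over all genes.

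Of the 77 members, 74 had at least 1 region and 73 had a region called in all 16 libraries. Rpl32l, Rpl10l and Rpl39l, copies named after other members, had no region in any library. Rpl4 had 3 regions, each missing from at least 1 library. Rpl3l, a muscle form of RPL3 in other work, had a region only at its 3′ end, within 1 kb of Msrb1. Of the 110 member regions, 86 were called in all 16 libraries and 24 were not, 5 of these in 1 library alone. Between 92 and 103 member regions were called per library. Of the 86 regions, 64 have no other protein-coding gene within 1 kb of their midpoint. For the 22 others the members and their neighbours cannot be told apart. A region that holds a start in the promoter table was found for 52 members, and its strongest summit lay at a median of -42.5 bp from the nearest RefSeq start, within 150 bp of it in 40 genes. Copies of these genes elsewhere in the genome can take reads from them, and how the authors treated reads with several matches is not given in the sources used here.

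The members' open regions sat in the middle of the range. The mean percentile of the 86 regions had a median of 57.0, from 3.05 to 96.8, beside 48.7 over all 39300 regions and 72.2 over the 7962 other regions that hold a coding gene's start. The highest were Rpl7 (96.8), the region inside Rpl10a (94.2), the region upstream of Rpl18 that also lies near Sphk2 (93.7), the region at the end of Rpl3l (92.4) and Rps29 (92.0). Among the lowest were regions past the end of Rpl23 (3.05) and of Rpl26 (3.23), and Rps4x (19.4). The SD within a group had a median of 3.34 percentile points in members and 3.24 over all regions. Over all 16 libraries the SD had a median of 5.28 in members and 6.32 over all regions.

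Averaged over DHT and EtOH, 32 of 86 member regions (37.2%) ranked lower in SPOPmut than in Control organoids and 19 (22.1%) ranked higher (limma with Benjamini-Hochberg adjustment over all 39300 regions, adjusted p under 0.05). That is 51 of 86 called, and the share over all regions was 70.4% (34.6% higher and 35.8% lower), so the share that was lower is near that of all regions and the share that was higher is below it. The median difference, SPOPmut minus Control, was -0.67 percentile points in members and -0.08 over all regions. The 60S members had 20 lower and 13 higher of 52 regions, and the 40S members had 12 lower and 6 higher of 34. In medium with DHT alone, 25 members were lower and 13 higher in SPOPmut (59.9% of all regions called), and with EtOH alone 29 were lower and 12 higher (57.9% of all called). Within chromosomes these splits were 29 lower and 3 higher with DHT (51.1% of all regions called, 26.3% lower and 24.8% higher), and 31 lower and 2 higher with EtOH (47.9% of all called, 23.9% in each direction). The library medians of the 86 regions were 57.6 to 60.8 in SPOPmut with DHT, 52.3 to 56.4 in SPOPmut with EtOH, 60.1 to 64.7 in Control with DHT and 57.6 to 59.6 in Control with EtOH. With EtOH, every SPOPmut library thus had a lower member median than every Control library.

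Rps24, a 40S protein gene mutated in some families with Diamond-Blackfan anaemia, had the largest fall. The region at its start ranked at 27.4, 12.6, 22.6 and 24.4 in SPOPmut with DHT and at 14.6, 18.03, 14.8 and 23.5 in SPOPmut with EtOH. In Control it ranked at 43.8, 49.3, 44.5 and 36.0 with DHT and at 43.9, 40.7, 41.7 and 43.6 with EtOH. No SPOPmut library reached a Control library, and the difference was -23.21 ± 2.28 (SE; limma adjusted p = 1.92e-07).

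Rps23, whose protein lies at the decoding centre of the 40S subunit, followed with -20.51 ± 3.40 (adjusted p = 5.85e-05). Its percentiles were 34.8, 38.7, 25.5 and 34.3 in SPOPmut with DHT, 26.7, 4.08, 29.2 and 27.5 in SPOPmut with EtOH, 47.8, 57.6, 51.0 and 45.7 in Control with DHT, and 51.4, 47.4, 41.7 and 42.2 in Control with EtOH. The groups of each genotype did not overlap, and the value of 4.08 stood apart from its group.

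The 40S gene Rps12 and the 60S gene Rpl32 were also among the lowest. Rps12 fell by 17.18 ± 2.51 (adjusted p = 1.62e-05), with group means of 55.3, 44.4, 67.6 and 66.5 in the order SPOPmut with DHT, SPOPmut with EtOH, Control with DHT and Control with EtOH. Rpl32 fell by 16.44 ± 3.30 (adjusted p = 0.000353), with means in that order of 37.0, 32.9, 55.5 and 47.3.

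Fewer members ranked higher in SPOPmut. The region at the 3′ end of Rpl18 (chr7:45720233-45721611, which reaches into Fam83e) had the largest rise, 35.22 ± 1.72 (adjusted p = 5.88e-11). It had 74.0, 71.5, 70.5 and 67.6 in SPOPmut with DHT and 77.3, 74.2, 75.04 and 74.1 in SPOPmut with EtOH, against 31.4, 31.2, 36.4 and 39.6 in Control with DHT and 41.1, 35.5, 46.3 and 40.9 in Control with EtOH. The region at the RefSeq start of Rpl18 (60S) differed by 3.90 ± 1.65 (adjusted p = 0.0459), but by -1.47 within chromosome 7 (adjusted p = 0.437), with group means of 47.0 and 44.5 in SPOPmut with DHT and with EtOH and 43.5 and 40.2 in Control with DHT and with EtOH. Over all regions, 596 of 39300 had a larger rise than the one at the 3′ end of Rpl18.

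Rpl14, a 60S protein gene, rose at its start by 11.39 ± 2.42 (adjusted p = 0.000584). Its percentiles were 61.1, 62.6, 61.9 and 64.0 in SPOPmut with DHT, 63.7, 57.4, 59.5 and 45.3 in SPOPmut with EtOH, 50.6, 54.1, 44.8 and 52.1 in Control with DHT, and 50.2, 49.7, 41.2 and 41.8 in Control with EtOH. With DHT the genotypes did not overlap, and with EtOH the lowest SPOPmut library lay among the Control libraries. Rps16 rose by 8.17 ± 2.25 (adjusted p = 0.00427), and a region at an end of Rpl3 by 7.26 ± 1.73 (adjusted p = 0.00147). Rps16 encodes a 40S protein, and Rpl3 a 60S protein near the peptidyl transferase centre. With DHT alone Rpl22 was also among the lowest (-15.74, adjusted p = 2.49e-05) and Rps28 among the highest (8.69, adjusted p = 0.00208), and with EtOH alone Rpl6 among the highest (8.36, adjusted p = 0.0241), a call lost when any 1 of 3 libraries was left out. Rps28 did not pass within chromosome 17 (4.37, adjusted p = 0.0647) or ranked by -log10 p, nor Rpl6 with percentiles over the whole list of each library (adjusted p = 0.0851). Rps23 and Rpl14 kept their direction but lost the call in DHT alone under 4 and 2 other rankings.

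**Figure D1:**
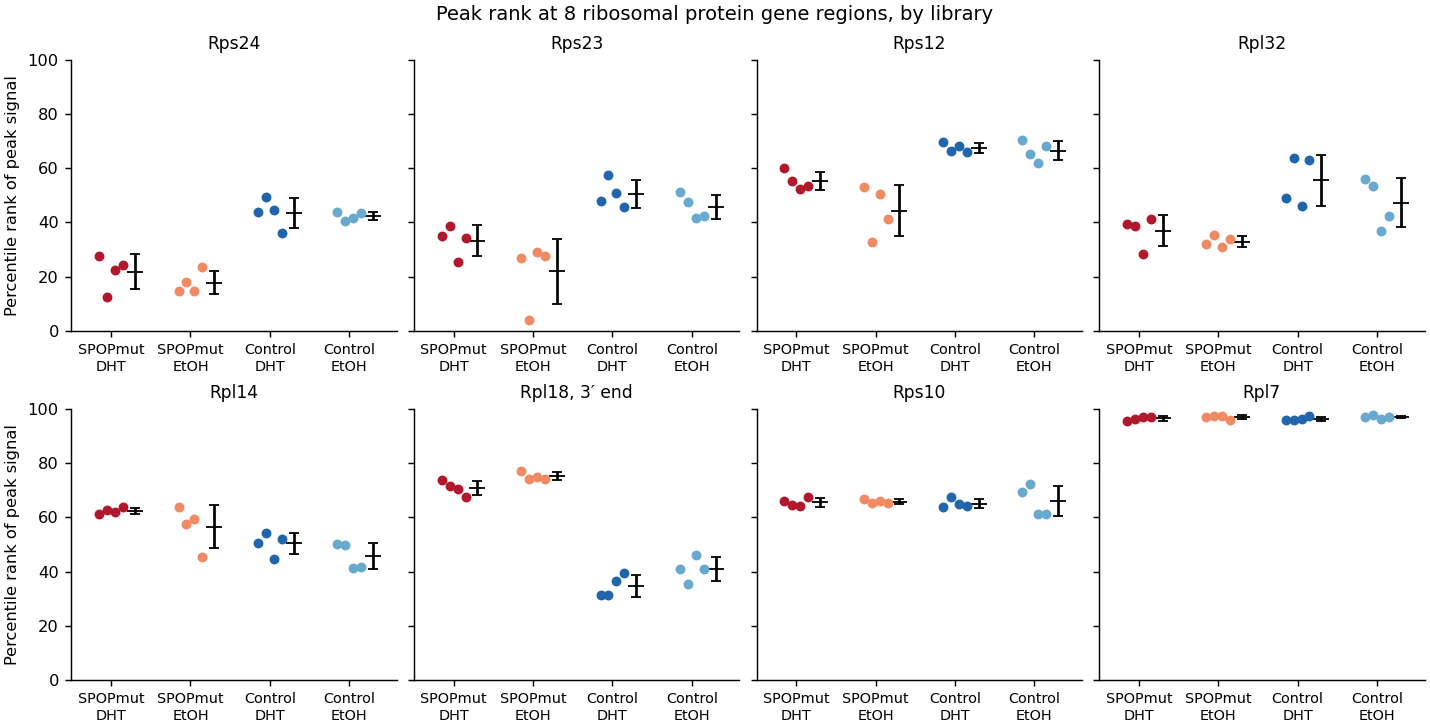
Percentile rank of peak signal (y axis, 100 the strongest of 39300 regions) in each library, with the mean and SD of each group (n = 4) beside the points, for 8 member regions. Rps24, Rps23, Rps12 and Rpl32 lay lower in SPOPmut, Rpl14 and the region at the 3′ end of Rpl18 lay higher, Rps10 lay between 61.2 and 72.2 and Rpl7 between 95.5 and 97.8.

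The genotype difference of a member went with its chromosome in many cases, though not in all. All 39300 regions together had a median difference of 8.92 on chromosome 2, 7.98 on chromosome 15 and 3.23 on chromosome 7, and of -8.32 on chromosome 14, -5.65 on chromosome 4 and -5.22 on chromosome 13. On chromosome 4 all 6 member regions, among them both of Rpl11, Rps6 and Rpl22, were lower in SPOPmut, on chromosome 10 all 4 and on chromosome 8 all 3. On chromosome 15 all 4 (Rpl37, Rpl30, Rpl8 and Rpl3) were higher, on chromosome 2 it was 3 of 4 (Rpl12, Rpl35 and Rps21), and on chromosome 7 it was 6 of 17 with none lower. The X chromosome went otherwise, with a median of 4.13 over all regions and of -0.69 over its 4 member regions, 0 of them called. On chromosome 18 the median was -0.90 over all regions and -10.15 over its 2 member regions, both lower. The share of each chromosome's regions that were called is not given here. Across the 86 regions the difference and the median of the chromosome had a Pearson r of 0.746, a description, since regions of a chromosome share 1 median.

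**Figure D2:**
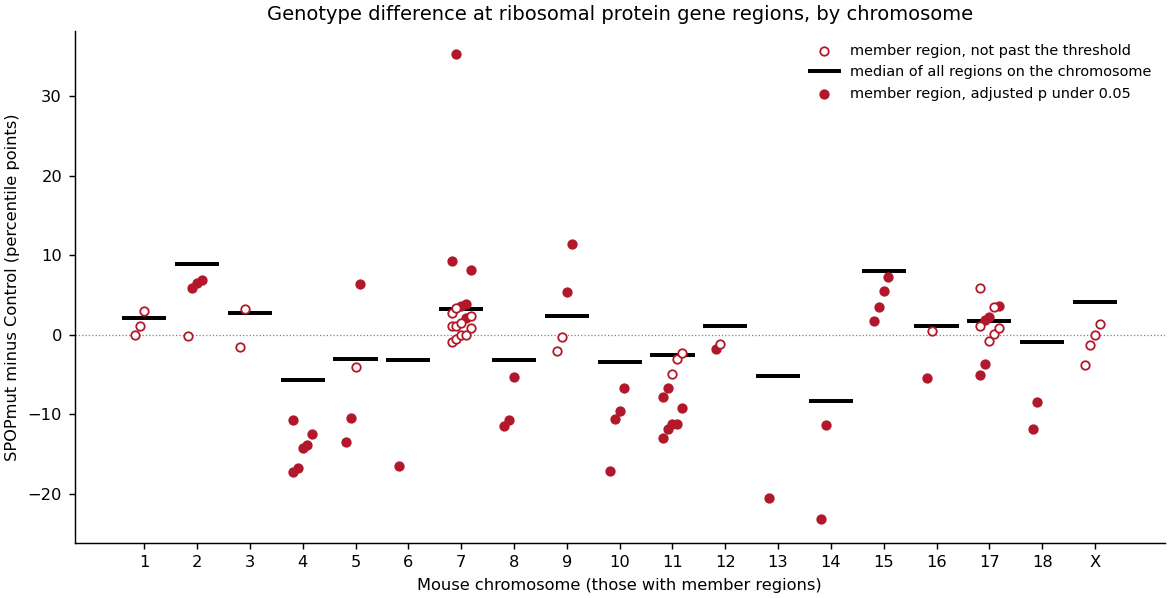
Difference in percentile, SPOPmut minus Control averaged over DHT and EtOH (y axis), for the 86 member regions by chromosome (x axis); filled points passed limma's adjusted p under 0.05, and black bars are the medians of all regions on that chromosome. The members' median lay below the bar on 18 of 19 chromosomes.

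Set against their own chromosome, the members were more uniformly lower in SPOPmut. On 18 of the 19 chromosomes that hold members their median difference was below that of all regions, chromosome 9 being the exception, and 69 of 86 regions lay below their chromosome's median, by a median of -2.91 points over the 86. With ranks taken within each chromosome, 45 member regions were lower in SPOPmut and 4 higher (52.3% and 4.65%; 61.2% of all regions were called, 30.7% lower and 30.5% higher). The median difference was then -3.15 in members and 0.08 over all regions. The 7962 other regions at coding gene starts had 16.5% lower and 26.2% higher on this scale, with a median of 0.60. Among the 52 regions at a member's start 30 were lower and 2 higher, and among the 64 regions with no other coding gene 37 were lower and 2 higher. The split over the genome (32 lower, 19 higher) and within chromosomes (45 lower, 4 higher) thus differs, and each is relative to its own set of regions.

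The 4 members shown above as lower over the genome were lower within their chromosome too, with differences of -15.92 (Rps24), -12.22 (Rps23), -11.52 (Rpl32) and -10.90 (Rps12). Of the 4 that rose within their chromosome, 3 were the region at the 3′ end of Rpl18 (29.35), Rpl14 (9.62) and Rpl6 (9.54). Several members that ranked higher over the genome did not within their chromosome. Rpl12, whose protein is at the base of the ribosomal stalk, was 6.91 ± 1.74 higher over the genome (adjusted p = 0.00225) and -4.82 within chromosome 2 (adjusted p = 0.0305). Of those named for chromosomes 2 and 15, Rpl35 (-2.08, adjusted p = 0.0374), Rpl37 (-4.47), Rpl30 (-3.87) and Rpl8 (-6.42, adjusted p = 0.0232) were lower within their chromosome, and Rps21 was at -0.21 (adjusted p = 0.714). Rpl3 was -3.51 within chromosome 15 (adjusted p = 0.0961), and Rps16 was 2.52 within chromosome 7 (adjusted p = 0.310).

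The members used as reference genes differed among themselves. Rpl13a at its start had 86.5, 88.2, 85.4 and 85.7 in SPOPmut with DHT, 87.6, 86.9, 88.0 and 87.9 in SPOPmut with EtOH, 88.2, 88.8, 85.1 and 84.9 in Control with DHT, and 86.4, 88.8, 86.1 and 88.0 in Control with EtOH. The groups overlapped, and the genotype difference was -0.01 ± 0.67 (adjusted p = 0.994) over the genome and -2.90 (adjusted p = 0.000815) within chromosome 7. Rps18 at its start, a region also within 1 kb of Vps52, fell by 5.01 ± 1.36 (adjusted p = 0.00396), a call missed by ranks of -log10 p (-7.03, adjusted p = 0.0519). Rpl19 at its start fell by 12.93 ± 4.18 (adjusted p = 0.0119) and did not pass within chromosome 11 (-8.32, adjusted p = 0.0787), and Rpl32 as given above.

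The 5 regions with the smallest shifts over the 4 comparisons of single groups were Rpl7, Rps10, the region of Rpl36 that also lies at Micos13, Rpl13a and Rps19, whose largest absolute difference was 0.588, 0.880, 1.06, 1.16 and 1.16 points. Rpl7 (its region also within 1 kb of Rdh10), Rpl13a and Rps19 lay near the top of the scale, with means of 96.8, 87.0 and 90.7, where a rank has little room to move. Rps10 lay at 65.6, with 65.9, 64.4, 64.0 and 67.7 in SPOPmut with DHT, 66.9, 65.1, 66.1 and 65.2 in SPOPmut with EtOH, 63.8, 67.7, 65.0 and 64.0 in Control with DHT, and 69.3, 72.2, 61.4 and 61.2 in Control with EtOH. These were chosen for small shifts over the genome and get no test; within chromosome 17 the genotype difference of Rps10 was -3.80.

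Other well-known members were read from the same fit. Rps6 differed by -12.48 at its start in SPOPmut (adjusted p = 1.81e-05) and by -5.36 within chromosome 4, but by 1.18 once the median of regions within 5 Mb was subtracted (adjusted p = 0.519), a setting chosen after seeing the data. Rpl11 at its start differed by -13.91 ± 1.63 (adjusted p = 1.46e-06), and Rpl5 differed by -4.06 (adjusted p = 0.0693). Rpl10, whose protein joins the 60S subunit late in its assembly, differed by 1.31 (adjusted p = 0.126) over the genome and by -2.11 within the X chromosome (adjusted p = 0.00362). Rps19, the gene most often mutated in Diamond-Blackfan anaemia, differed by 0.85 at its start (adjusted p = 0.266). Other rankings of that region went both ways, with 3.99 by -log10 p (adjusted p = 0.00120) and -4.73 (adjusted p = 7.4e-05) minus the local median.

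Averaged over the genotypes, 16 of 86 member regions (18.6%) ranked higher with DHT and 2 (2.33%) lower (limma, adjusted p under 0.05), while 43.8% of all regions were called, 18.4% higher and 25.4% lower. The share of members that was higher is thus near that of all regions, and the share that was lower is below it. The median difference, DHT minus EtOH, was 1.22 points in members and -0.21 over all regions. The other regions at coding gene starts were called in 4.90% (higher) and 6.66% (lower), with a median of 0.00. The members' median was above that of all regions on 17 of 19 chromosomes, and with ranks within chromosomes 18 were higher and 2 lower (43.7% of all called). The 60S members had 13 higher of 52 and the 40S members 3 of 34; the difference between the subunits was not tested. This count depended on the ranking. With percentiles over the whole list of each library, 6 were higher and 1 lower (39.7% of all regions called), and after the median of regions within 5 Mb was subtracted, a setting chosen after seeing the data, 19 were higher and 7 lower (45.9% of all called, 20% higher and 25.9% lower).

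In SPOPmut alone 10 member regions were higher with DHT and 0 lower (34.2% of all called, 14.3% higher and 19.9% lower), and in Control alone 8 were higher and 0 lower (34.1% of all called, 15.6% higher and 18.6% lower). Ranked by -log10 p, the splits were 7 higher and 2 lower, and 6 higher and 2 lower (30.6% and 30% of all called), and after subtracting the local median 9 and 5, and 7 and 5 (35.5% and 34.2%). At an unadjusted p under 0.05, 18 and 15 passed in either direction (20.9% and 17.4%, beside 41.0% and 41.5% of all regions). The counts hung on single libraries. In SPOPmut the count was 6 without replicate 1, 2 or 4 of SPOPmut with DHT, or without replicate 2 or 4 of SPOPmut with EtOH, and in Control it was 3 without replicate 3 of Control with EtOH. In 46 of 86 member regions the difference was above 0 in both genotypes (53.5%, beside 33.3% of all regions), and in 15 it was below 0 in both (17.4%, beside 39.7%).

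Among the regions called, and apart from Rpl11, large differences with DHT in SPOPmut alone were at Rps12 (10.92, adjusted p = 0.0252), Rpl17 (9.41, adjusted p = 0.0366) and Rpl23 (8.40, adjusted p = 0.0181). Rps23, at 11.43, did not pass (adjusted p = 0.0820). Rpl17 lost this call when any 1 of 6 libraries was left out, and Rps12 and Rpl23 when any 1 of 3 was. In Control alone they were at Rpl6 (8.42, adjusted p = 0.0374), Rpl12 (8.01, adjusted p = 0.0187) and Rpl28 (7.92, adjusted p = 0.00294). Rpl6 lost this call without any 1 of 4 libraries and Rpl12 without any 1 of 2. With whole-list percentiles Rps12, Rpl17, Rpl23, Rpl6 and Rpl12 did not pass. Ranked by -log10 p, Rps12 (4.52, adjusted p = 0.428) and Rpl23 (7.84, adjusted p = 0.210) did not pass in SPOPmut. By that ranking Rpl12 (2.13, adjusted p = 0.738) and Rpl28 (7.78, adjusted p = 0.0978) did not pass in Control. Rps12 was also missed with summed peaks (adjusted p = 0.119), and Rpl17 with peaks of a signal of at least 500 (adjusted p = 0.0542). After subtracting the local median Rpl17, Rpl6 and Rpl12 did not pass.

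**Figure D3:**
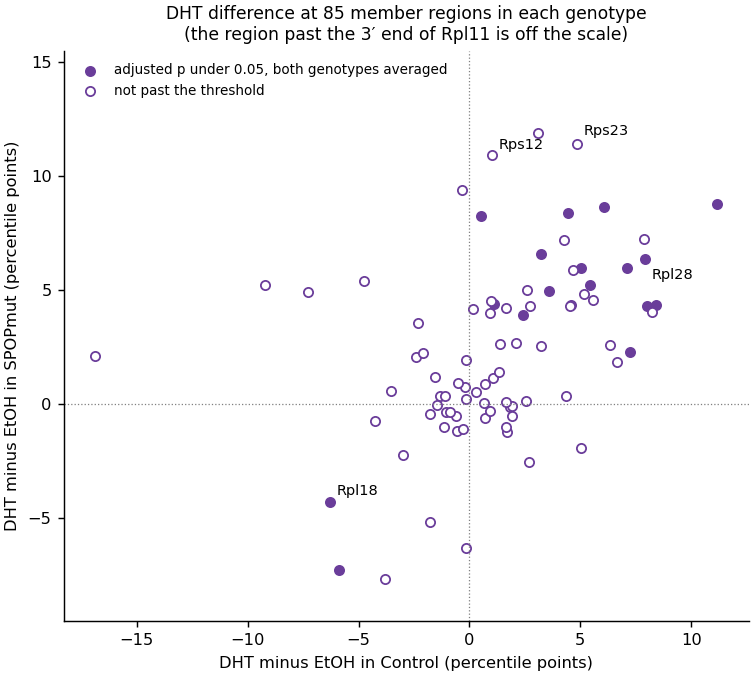
Difference in percentile, DHT minus EtOH, in SPOPmut (y axis) and in Control (x axis) for 85 member regions; filled points passed limma's adjusted p under 0.05 averaged over the genotypes. Most points lie right of and above 0; the region past the 3′ end of Rpl11, at 56.40 and 53.23, is off the scale.

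The largest change with DHT at any member was at a region past the 3′ end of Rpl11 (chr4:136048123-136049320), which starts 34 bp beyond the gene and has no other coding gene within 1 kb. Its percentiles were 60.8, 57.0, 58.3 and 56.8 in SPOPmut with DHT and 0.868, 2.79, 3.26 and 0.369 in SPOPmut with EtOH. In Control they were 75.8, 74.4, 74.3 and 68.9 with DHT and 16.02, 23.1, 24.97 and 16.4 with EtOH. The 4 groups did not overlap. The DHT difference was 54.81 ± 1.58 averaged over the genotypes (adjusted p = 2.98e-13), 56.40 in SPOPmut (adjusted p = 3.03e-11) and 53.23 in Control (adjusted p = 7.25e-11), and the interaction term was 3.17 (adjusted p = 0.666). SPOPmut with EtOH lay near the floor of the scale, where a rank has little room to fall. This limits what the interaction term and the genotype difference in rank can show here. Of all 39300 regions, 80 had a larger DHT difference.

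The same region ranked lower in SPOPmut than in Control, with a difference of -16.73 ± 1.58 (adjusted p = 1.21e-07), and of -12.35 within chromosome 4. It was a peak of its own in every library, its summit 765 to 815 bp past the end of Rpl11. The deposited signal of that peak was 1411.53 to 1726.06 in SPOPmut with DHT, 225.668 to 406.599 in SPOPmut with EtOH, 1915.05 to 2242.7 in Control with DHT and 556.156 to 755.914 in Control with EtOH.

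At the start of Rpl11, whose sequence stands above, the DHT difference was 2.40 ± 1.63 (adjusted p = 0.266). That region had 47.7, 46.8, 43.4 and 42.7 in SPOPmut with DHT, 42.9, 38.3, 44.5 and 44.2 in SPOPmut with EtOH, 57.7, 59.5, 59.9 and 57.9 in Control with DHT, and 62.8, 52.8, 53.0 and 58.2 in Control with EtOH. With and without DHT the libraries overlapped in each genotype, and SPOPmut libraries lay below Control libraries throughout.

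**Figure D4:**
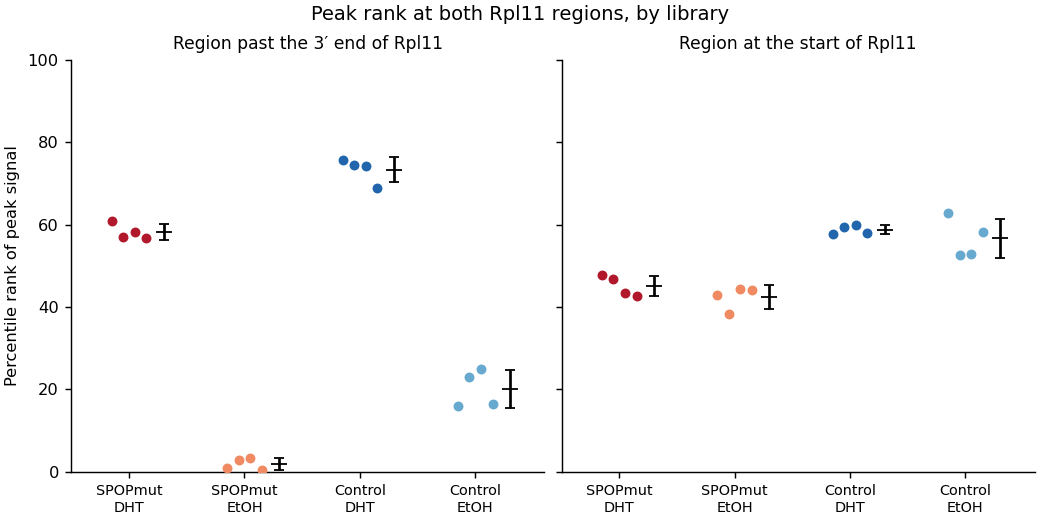
Percentile rank of peak signal (y axis) in each library by group, with the mean and SD of each group (n = 4), for the region past the 3′ end of Rpl11 (left) and the region at its start (right). The left region lay at 56.8 to 75.8 with DHT and at 0.369 to 24.97 with EtOH; the right one shows the genotypes apart and the treatments overlapping.

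The other members that rose with DHT moved by less. Rpl28 (60S) had 68.5, 70.1, 68.7 and 67.9 in SPOPmut with DHT and 61.4, 61.2, 66.6 and 60.5 in SPOPmut with EtOH, and it had 67.8, 74.6, 66.8 and 69.3 in Control with DHT and 59.2, 62.1, 63.3 and 62.1 in Control with EtOH. The treatments did not overlap in either genotype, and the difference was 7.15 ± 1.29 (adjusted p = 0.000251), with 6.38 in SPOPmut (adjusted p = 0.0122) and 7.92 in Control (adjusted p = 0.00294). Its genotype difference was -0.04 over the genome (adjusted p = 0.979) and -5.17 within chromosome 7 (adjusted p = 0.00145).

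The region at the start of Rpl12 was 6.17 ± 1.74 higher with DHT (adjusted p = 0.00840). Its percentiles were 68.4, 68.7, 69.9 and 67.8 in SPOPmut with DHT, 64.8, 57.6, 70.0 and 65.1 in SPOPmut with EtOH, 59.7, 67.1, 67.8 and 59.96 in Control with DHT, and 54.8, 58.5, 54.3 and 54.9 in Control with EtOH. In Control the treatments did not overlap, and in SPOPmut they did. Rpl36a was 6.53 ± 1.78 higher with DHT (adjusted p = 0.00682), a call missed by ranks of -log10 p (4.63, adjusted p = 0.149), and Rpl23 6.42 ± 1.82 (adjusted p = 0.00868). Rpl9 was 7.34 ± 2.46 higher (adjusted p = 0.0232), a call lost without replicate 2 of Control with DHT (6.18) and with whole-list percentiles (4.62, adjusted p = 0.155).

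Further rises, of 2.76 to 6.38 points, were at Rpl7a, Rpl38, Rpl31, Rpl21, Rpl37a, Rps6, Rps26, Rps14 and Rpl6. Rps6, at 4.91 (adjusted p = 0.0414), lost its call when any 1 of 11 libraries was left out, and with the replicate block (adjusted p = 0.0621). Its call was also lost with whole-list percentiles (2.73, adjusted p = 0.309) and ranked by -log10 p (3.56, adjusted p = 0.313). Of the 2 regions that fell with DHT, 1 was the region at the 3′ end of Rpl18 (-5.27; by -log10 p -3.93, adjusted p = 0.260), which also ranked higher in SPOPmut and lies toward a neighbouring gene.

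The limma interaction term, the test of a DHT difference that differs between genotypes, called 0 of 86 regions, against 5.98% of all regions. At an unadjusted p under 0.05 it passed in 5 of 86 (19.1% of all regions), and the smallest adjusted p was 0.0561, at Rps28. The exact permutation test called 0, but it shuffled the DHT labels within each genotype. A DHT difference shared by both genotypes widens its null spread, so it cannot decide on the interaction. The limma term called 1 with summed peaks, ranks within chromosomes, normal scores or peaks of a signal of at least 500, and 3 of 113 regions with a 5 kb window. A p that misses the threshold does not show that members respond alike in both genotypes.

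Presence or absence of a peak changed at few members. Of 105 member regions called in at least 2 libraries, 1 differed by genotype (0.952%; 6.99% of all 80352 regions did) by an exact stratified test with Benjamini-Hochberg adjustment. It lies inside Rpl36 and was called in 4 of 4 SPOPmut libraries with DHT, 4 of 4 with EtOH, 0 of 4 Control libraries with DHT and 1 of 4 with EtOH (adjusted p = 0.0292). With peaks of a signal of at least 500 this count was 0. By DHT 0 of 105 differed (1.77% of all regions), 3 of 105 at an unadjusted p under 0.05 (2.86%, beside 11.1% of all regions), and no other tool was run on the calls. Of the 105 member regions 86 were called in all 16 libraries and could not differ, as was the case for 39300 of all 80352. The lower shares in members were thus in part fixed in advance.

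Other regions had calls that went with a group without passing. The one past the end of Rps27 was called in 4, 4, 4 and 0 libraries of SPOPmut with DHT, SPOPmut with EtOH, Control with DHT and Control with EtOH. In the same order, the one past the end of Rps24 had 0, 4, 0 and 0, the one past the end of Rps6 had 2, 0, 3 and 0, and the one past the end of Rpl10, near Dnase1l1, had 2, 3, 0 and 0. The 2 regions of Rpl24 split into a start region called in all 16 libraries and one inside the gene with 2, 2, 0 and 0.

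Related genes were read from lists chosen with results of these data known. Their counts stand beside 34.6% higher and 35.8% lower of all regions by genotype, 30.5% and 30.7% within chromosomes, and 18.4% and 25.4% with DHT. The other cytosolic ribosomal proteins, 10 genes outside the naming rule such as Rplp0, Rpsa and Fau, have 12 regions called in all libraries, of which 1 was higher and 2 lower in SPOPmut and 2 higher with DHT. Within chromosomes 1 was higher and 2 lower in SPOPmut (8.33% and 16.7%, beside 4.65% and 52.3% of member regions). The median difference there was -1.37, beside -3.15 in members. Rplp0, a stalk protein gene and a common reference, had 1 region 7.63 higher (adjusted p = 0.00204) and 1 region with -1.79 (adjusted p = 0.0319) in SPOPmut, and Rpl7l1 had 1 region with -2.53 (adjusted p = 0.0200). Rplp2 and Rps3a1 were the 2 that rose with DHT, by 7.59 and 7.16 points.

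Ribosome biogenesis genes (24 genes, 29 regions) were higher in SPOPmut in 12 regions (41.4%) and lower in 6 (20.7%), with 3 and 4 when ranked within chromosomes. They include Fbl, the box C/D methyltransferase (17.70), Nop10 (16.87), the RNA polymerase I gene Polr1a (-14.76) and Npm1, nucleophosmin (-8.31). With DHT 2 were higher and 1 lower. Translation factors and other 5′ TOP genes (18 genes, 28 regions) had 12 higher (42.9%) and 9 lower (32.1%) in SPOPmut, 7 and 10 within chromosomes, and 3 higher and 4 lower with DHT. Among them were regions of Eif3f (17.16), Eef1d (15.24), Eef2 (-12.75) and Rack1 (-6.69). A second region had -3.35 at Eif3f (adjusted p = 0.120), 6.07 at Eef1d and -0.75 at Eef2. The mitochondrial ribosomal proteins (78 genes, 101 regions) had 30 higher and 30 lower (29.7% each) in SPOPmut, 28 and 15 within chromosomes, and 7 higher and 10 lower with DHT. The largest in each direction at single regions were at Mrpl2 (35.48), Mrpl1 (23.73), Mrpl57 (-12.83) and Mrps35 (-12.29). Other regions of Mrps35 went both ways, with 7.06 (adjusted p = 0.000176), 4.39 (adjusted p = 0.0134), 2.58 (adjusted p = 0.240) and -6.99 (adjusted p = 0.00229). Differences between these lists and the cytosolic members were not tested.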

How the data were processed

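Open chromatin was measured by ATAC-seq in 16 libraries, and the deposited narrowPeak lists, 1 per library, were used; read counts and pooled tracks were not used here. Per the submitters' processing notes, the build is mm10 and the tools are Bowtie2 2.3.4.1, SAMtools 1.8 and Genrich. The peak signal (column 7), the -log10 p-value of the summit (column 8) and the score (column 5) are the authors' deposited values; the score was used in no test. The values depend on library depth, so only ranks within a library were compared. Peaks overlapping by 1 bp were merged, and genes came from RefSeq (GRCm38.p6).

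Percentile ranks were fitted with limma 3.58.1 (R 4.3.3; 1 mean per group, intensity trend) for 7 contrasts, with Benjamini-Hochberg adjustment over 39300 regions. Peak calls were tested exactly within the other factor over 80352 regions. All tests are two-sided and were tested on simulated data. Python 3.11.15 with pandas 2.3.3, NumPy 2.4.6, SciPy 1.17.1 and Matplotlib 3.10.9 was used. The members and lists were chosen with earlier results of these data known. Named regions are the 5 per direction with the largest called difference in each contrast, the 5 steadiest, the 5 highest and 5 lowest, those with incomplete calls, members on 6 chromosomes and 9 well-known members; some of them are not reported here. With no counts, no counting interval is given.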

Additional observations from a re-analysis of the deposited data

Results flagged for a closer look

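Among 92 groups of 4 libraries (23 regions with printed values in 4 groups), 5 had a library far from the other 3 by Dixon's test, and chance alone flags about 1 group in 20. SPOPmut with EtOH replicate 2 had 4.08 at Rps23, with the others at 26.7 to 29.2, and 39.4 at the start of Rpl18, with the others at 45.6 to 46.8. Rpl28 had 66.6 in SPOPmut with EtOH replicate 3 (others 60.5 to 61.4). Rpl19 at its start had 40.1 in SPOPmut with DHT replicate 4 (others 25.3 to 27.6). Rpl12 had 58.5 in Control with EtOH replicate 2 (others 54.3 to 54.9).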

How the results depend on the processing

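The counts of members by genotype, averaged over treatments, were 45 to 54 under every other ranking and threshold, with any 1 library left out, and with the replicate block, the exact permutation test and the wider member definition. The exceptions were 3 settings that change the window or the share of a region that a call must cover. With midpoints inside the gene body (43 regions) the counts were 28 by genotype, 18 with DHT alone, 23 with EtOH alone, 11 by DHT, 6 by DHT in SPOPmut and 4 in Control. With a 5 kb window (113 regions) they were 70 by genotype, 30 by DHT, 20 in SPOPmut, 19 in Control, 3 for the interaction and 5 for calls by genotype. Keeping a library's call only where its peaks covered at least 50% of the merged region gave 39 by genotype, 27 by genotype with EtOH and 1 for calls by DHT. In these 3 settings fewer or more regions entered the count, 66 with the cover rule. The number of regions also changed in settings within the range of 45 to 54. It was 50 of 83 with lists of equal length, 45 of 72 with peaks of a signal of at least 500, and 54 of 98 with the wider definition. The main fit had 51 of 86. These counts are thus over unlike totals, and the range does not by itself show a steady share. Whole-list percentiles gave 7 by DHT, 4 in SPOPmut and 4 in Control, and the cause was not tested. The interaction count was 1 with summed peaks, ranks within chromosomes, normal scores and peaks of a signal of at least 500, the last of which gave 0 for calls by genotype.

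Leaving out 1 library gave 47 to 52 by genotype, 32 to 39 with DHT alone, 34 to 41 with EtOH alone, 14 to 22 by DHT, 6 to 12 in SPOPmut, 3 to 9 in Control and 0 to 1 for the interaction. Same-numbered libraries did not deviate together (correlations of -0.332 to 0.134, median 0.0154, and 0 libraries closest to their own number). No pairing by number was thus seen, but this cannot show that same-numbered libraries shared no culture or batch. The replicate block gave 50 by genotype, 38 and 41 within DHT and EtOH, 17 by DHT, 10 in SPOPmut, 8 in Control and 0 for the interaction.

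Of 63 differences at 29 named regions, refitted 1623 times in all, 10 values turned their sign with a call in either fit, and 41 values called in neither fit crossed 0. Within chromosomes Rpl3 had -3.51 by genotype and -0.41 by genotype in DHT alone, Rpl12 -3.28 in EtOH alone, and Rpl10 -2.11. Minus the median of regions within 5 Mb, a setting chosen after seeing the data, Rpl3 had -7.57 and -3.50, Rpl12 -9.32, Rps6 1.18, Rps19 at its start -4.73 and Rpl10 -4.22. Member counts in that setting were 47 by genotype (3 higher, 44 lower), with 33.4% of all regions higher and 32.9% lower. By DHT they were 26 (19 higher, 7 lower), with 20% of all regions higher and 25.9% lower. With no read counts, depth limits which weak peaks were called, and its effect could not be measured.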
